A study of Mus musculus with 10 samples.

Results

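The Hox genes encode homeodomain transcription factors that lie in 4 clusters in the mouse genome, Hoxa, Hoxb, Hoxc and Hoxd, and open chromatin in these clusters was measured by ATAC-seq in bone marrow stromal cells. The members were 38 listed Hox genes, of 21631 protein-coding genes with a position. Every peak was taken whose summit, its highest point, lay between the first and the last listed gene of a cluster or within 10 kb on either side. These windows were chr6:52152417-52270880 for Hoxa with 10 members, chr11:96184316-96378254 for Hoxb with 10, chr15:102911131-103046856 for Hoxc with 9 and chr2:74658225-74775142 for Hoxd with 9, in mm10. They held 623 of the 615190 deposited peaks, and 341 of the peaks kept when every library was reduced to its 39912 strongest peaks, the equal-size lists used below unless stated.

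Along each cluster the gene order follows the order of expression along the head-to-tail axis of the embryo, with low-numbered genes expressed anteriorly and high-numbered genes posteriorly. Mesenchymal cells, including those of adult bone, keep part of the Hox pattern of the place they came from, which is often called positional identity. Hox proteins bind DNA together with partners of the Pbx, Meis and Pknox families. Polycomb proteins keep inactive Hox genes closed, trithorax proteins counteract them, and retinoic acid is an early activator of the clusters.

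All cells came from strain C57BL/6J, and the Scf-GFP reporter was used to mark stroma that expresses stem cell factor, a ligand needed by blood stem cells. The rMSC (revitalized mesenchymal stromal cell) group held 3 libraries of cultured stroma that had received vectors for 5 genes, Klf7, Ostf1, Irf3, Irf7 and Xbp1, and the control group held 3 libraries of cultured stroma transduced with a control vector. Both cultures had been seeded with Scf-GFP-positive stroma and grown with serum and FGF-basic. The Scf-GFP-positive group and the Scf-GFP-negative group held 2 libraries each of freshly sorted cells. Both fresh groups, and the cells that seeded the cultures, were sorted as negative for CD45, Ter119 and CD31, surface markers of blood, red cell precursors and endothelium. Control cultures differed from Scf-GFP-positive stroma both by culture and by the vector, which cannot be told apart. Nothing in the labels ties replicates to separate mice or cultures. The p-values therefore reflect the scatter among libraries alone, part or all of which may be technical. Replicate 1 of every group came from one flow cell and the other libraries from another, so flow cell and group were not confounded.

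Marker loci, each a gene body with 10 kb on either side, were checked against the labels. The 10 mesenchymal markers summed to 38 to 39 summits per library in rMSC, 42 to 55 in control cultures, 53 to 63 in Scf-GFP-positive stroma and 7 to 9 in Scf-GFP-negative cells. The mesenchymal regulator Prrx1 and the adhesion gene Vcam1 had no summit in either Scf-GFP-negative library. The 10 blood markers summed to 8 to 10 in rMSC, 8 to 10 in control cultures, 13 in each Scf-GFP-positive library and 29 to 36 in Scf-GFP-negative libraries, and the 7 erythroid and megakaryocyte markers to 8 to 13, 10 to 14, 17 to 18 and 36 to 50 in the same order of groups. Ptprc, which encodes the CD45 protein used to deplete blood cells, had 0 summits in both Scf-GFP-positive libraries, against 5 in each of the Scf-GFP-negative ones. The 8 endothelial markers summed to 8 to 11, 9 to 14, 7 and 9 to 18, with Cdh5, Kdr, Tie1, Emcn and Sox17 at 0 in Scf-GFP-negative cells. The Scf-GFP-negative libraries, labelled as stromal cells, thus had the fewest summits at mesenchymal markers and the most at blood and erythroid ones.

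The 4 clusters behaved differently from each other. The Hoxc cluster was open in rMSC, control cultures and Scf-GFP-positive stroma and nearly without peaks in Scf-GFP-negative cells. Summits in the Hoxb cluster were found mainly in control cultures, and those in the Hoxd cluster were most frequent in Scf-GFP-positive stroma. The Hoxa cluster held many summits in every group. All 38 members are accounted for. Hoxb1, a hindbrain gene, and Hoxb13, at the posterior end of its cluster, had no summit within 10 kb in any library, 36 had one in at least 1 library and 7 in all 10. At least 1 summit within 10 kb was found for 24 members in rMSC, 30 in control cultures, 29 in Scf-GFP-positive stroma and 21 in Scf-GFP-negative cells.

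**Figure D1:**
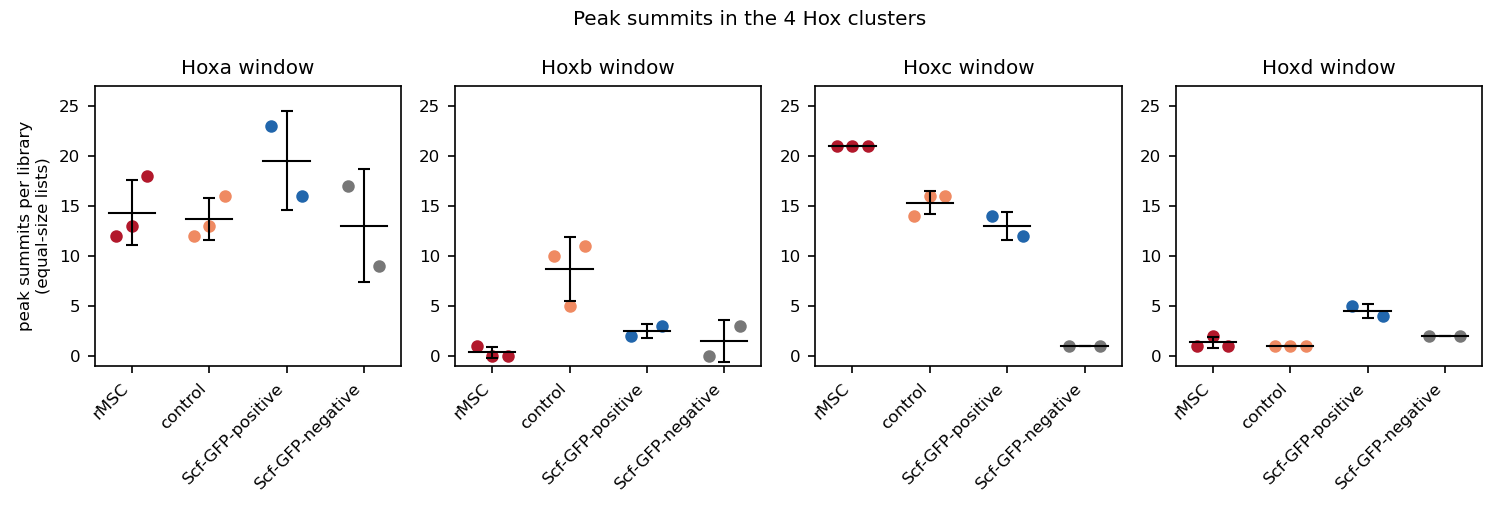
Peak summits per library in the 4 Hox windows (y axis, number of summits in the equal-size lists) for rMSC, control, Scf-GFP-positive and Scf-GFP-negative libraries; points are libraries, lines the group means and bars the SD. The Hoxc window held 21 summits in each of the 3 rMSC libraries and 1 in each of the 2 Scf-GFP-negative libraries, and the Hoxb window held 0 to 1 in rMSC, 5 to 11 in control, 2 to 3 in Scf-GFP-positive and 0 to 3 in Scf-GFP-negative libraries.

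Scf-GFP-positive stroma was first compared with Scf-GFP-negative cells, which asks how the clusters differ between stroma that expresses stem cell factor and the rest of the sorted cells. The Hoxc window held 14 and 12 summits in Scf-GFP-positive libraries, against 1 and 1 in Scf-GFP-negative libraries. Peaks covered 4.49% and 4.25% of it in Scf-GFP-positive libraries and 0.147% and 0.237% in Scf-GFP-negative cells. The groups did not overlap. The log2 change in summits was 3.17 ± 0.12 (SE), with an adjusted p of 9.35e-06. This and all adjusted p-values below are limma values with Benjamini-Hochberg adjustment over 9161 loci, on the log2(summits + 0.5) scale, which understates changes of loci with few summits. The ratio of the group means was 13.0, with a 95% exact interval of 3.26 to 113 for counting error only. The call was made under all 20 settings tried. With all deposited peaks the window held 18 and 28 summits in Scf-GFP-positive and 1 and 1 in Scf-GFP-negative libraries. Within each flow cell the difference had the same direction, with 14 against 1 on the first and 12 against 1 on the other. The weakest peak of the equal-size lists had a −log10 q of 4.27 to 5.80 in the rMSC, control and Scf-GFP-positive libraries and of 2.65 and 2.10 in the Scf-GFP-negative ones, so the Scf-GFP-negative lists reached down to weaker peaks. Marker loci of mesenchymal cells moved with this result, as given above, and their part in it was not tested. In such bulk libraries, fewer cells with an open cluster and less opening per cell cannot be told apart.

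Of the 38 members, 15 could be tested, averaging 2 or more summits over the 10 libraries: Hoxa3, Hoxa5, Hoxa6, Hoxa7, Hoxa9, Hoxa10, Hoxa11, Hoxb3 and 7 genes from Hoxc4 to Hoxc11. The other 23 did not reach that mean. Hoxb3 and Hoxc5 reached it only through the group in which they were highest, control for Hoxb3, with a mean of 1.14 over the other libraries, and rMSC for Hoxc5, with 1.86. The Hoxb window likewise reached it only through control cultures, with a mean of 1.29 elsewhere, and the Hoxd window only through Scf-GFP-positive stroma, with 1.38 elsewhere, so the filter itself favoured a difference in comparisons of those groups. Between Scf-GFP-positive and Scf-GFP-negative cells, 8 member loci rose and 0 fell in the limma test, against 13.8% of all tested loci that rose and 16.6% that fell, 30.4% in all. At an unadjusted p under 0.05 there were 10 members. The median log2 change was 1.30 over the tested members and −0.22 over all loci. Because members had to pass a filter on the mean over all libraries, these counts describe the tested members only. The 8 were Hoxc4, Hoxc5, Hoxc6, Hoxc8, Hoxc9, Hoxc10, Hoxc11 and Hoxa6. Loci of neighbouring Hox genes overlap, so 1 summit can count for several of them.

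The central Hoxc genes pattern the thoracic skeleton. The Hoxc6 locus had 4 and 6 summits in Scf-GFP-positive libraries, against 0 and 0 in Scf-GFP-negative libraries, with an adjusted p of 0.000169. The Hoxc8 locus had 3 and 7 against 0 and 0 (adjusted p = 0.000407), and the Hoxc5 locus had 2 and 1 against 0 and 0 (adjusted p = 0.00392). None of these groups overlapped, and no fold is given where all libraries of a group are at 0. The Hoxc5 call rests on few summits, and their counting error was not tested. Hoxc4, the most anterior member of the cluster, had 3 and 2 summits in Scf-GFP-positive and 1 and 0 in Scf-GFP-negative libraries, a ratio of 5.00 with a counting interval of 0.560 to 237, and an adjusted p of 0.0239. Its call was lost without Scf-GFP-positive replicate 1 (adjusted p = 0.122) or replicate 2 (adjusted p = 0.0612).

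The posterior Hoxc genes act in the thoracic and lumbar skeleton and the hindlimb. The Hoxc9 locus had 3 and 4 summits in Scf-GFP-positive libraries, against 0 and 0 in Scf-GFP-negative libraries (adjusted p = 8.91e-05). The Hoxc10 locus had 8 and 3 against 0 and 1, a ratio of 11 with a counting interval of 1.60 to 474 (adjusted p = 0.0118). The Hoxc11 locus had 6 and 2 against 0 and 1, a ratio of 8.00 with a counting interval of 1.07 to 355 (adjusted p = 0.0414). In all 3 the groups stood apart, with the lower Scf-GFP-positive value close to the Scf-GFP-negative ones for Hoxc11. Without Scf-GFP-positive replicate 1 the adjusted p was 0.0686 for Hoxc10 and 0.213 for Hoxc11, and Hoxc11 also lost its call without Scf-GFP-negative replicate 1 (adjusted p = 0.196) and was called under 10 of 20 settings. The most posterior Hoxc members had no summit in the equal-size lists of these 4 libraries: Hoxc12 and Hoxc13, a gene of hair and nails. Among all deposited peaks, Hoxc12 had 0 and 2 summits and Hoxc13 had 1 and 1 in Scf-GFP-positive libraries. Both stayed at 0 in the Scf-GFP-negative ones.

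The remaining clusters differed less between the sorted groups. The Hoxa window held 23 and 16 summits in Scf-GFP-positive libraries, against 17 and 9 in Scf-GFP-negative libraries. The groups overlapped, and the log2 change of 0.61 ± 0.33 had an adjusted p of 0.207. It was 1.05 without Scf-GFP-negative replicate 1 (adjusted p = 0.0559) and 0.17 without Scf-GFP-negative replicate 2 (adjusted p = 0.738). Chromosome 6 held 5.22% to 5.93% of the peaks of 9 libraries, but 10.1% of those of Scf-GFP-negative replicate 1. With chromosome totals equalised between libraries, the Hoxa log2 change was 1.04 ± 0.23 (adjusted p = 0.00792), so the call depended on that step. Hoxa6, which acts in the cervical and thoracic skeleton, had 6 and 6 summits in Scf-GFP-positive and 3 and 2 in Scf-GFP-negative libraries. Those groups did not overlap, and the log2 change was 1.14 ± 0.28 with an adjusted p of 0.0211, which was lost without Scf-GFP-negative replicate 2 (adjusted p = 0.105) and without either Scf-GFP-positive library (adjusted p = 0.0809 without replicate 1, 0.0813 without replicate 2). It was also lost with all deposited peaks (adjusted p = 0.0684), in a fit of the 2 groups alone (adjusted p = 0.108) and with tied peaks at the end of the lists left out (adjusted p = 0.115) or all kept (adjusted p = 0.0656), the treatment of ties having been added after the data were seen. Hoxa9, a gene active in blood progenitors as well as in the skeleton, had 9 and 6 summits in Scf-GFP-positive and 7 and 7 in Scf-GFP-negative libraries, which overlapped (adjusted p = 0.872). Hoxa13, which patterns hands and feet, had 0 summits in both Scf-GFP-positive libraries and 4 and 0 in Scf-GFP-negative ones. It had 0 in all rMSC and control libraries. Among all deposited peaks Hoxa13 had 0 and 1 in Scf-GFP-positive and 4 and 0 in Scf-GFP-negative libraries. It then had 2, 1 and 1 in rMSC and 0, 2 and 3 in control libraries.

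The Hoxd window held 5 and 4 summits in Scf-GFP-positive libraries, against 2 and 2 in Scf-GFP-negative libraries. The groups stood apart by a small number of summits, and the log2 change was 0.99 ± 0.26 with an adjusted p of 0.0257. The window passed the filter only through the Scf-GFP-positive libraries and could not be tested without either of them. The call was lost without Scf-GFP-negative replicate 1 (adjusted p = 0.0702) or replicate 2 (adjusted p = 0.0756). No Hoxd member reached the mean needed for a test of its own. The Hoxb window held 2 and 3 summits in Scf-GFP-positive libraries and 0 and 3 in Scf-GFP-negative libraries, which overlapped (log2 change 1.16 ± 0.92, adjusted p = 0.378). Its direction was not stable, with −0.24 without Scf-GFP-negative replicate 1, 2.56 without Scf-GFP-negative replicate 2 and −0.79 with a −log10 q of at least 5. Without any filter, 18 of 38 members had higher summit counts in every Scf-GFP-positive than in every Scf-GFP-negative library, against 13.1% of all loci, and 0 had lower ones, against 18.2% of all loci.

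**Figure D2:**
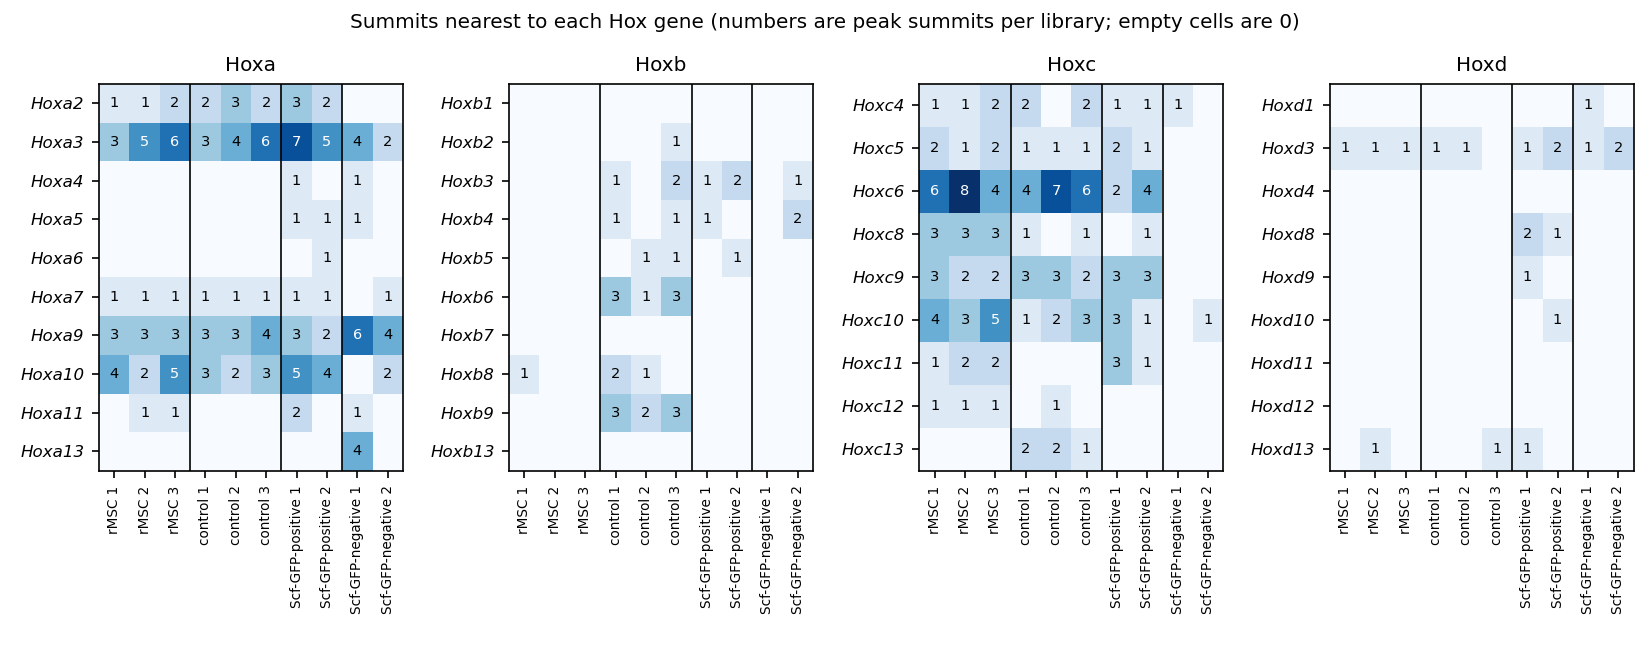
Summits per Hox gene (rows, by cluster) and library (columns, with rMSC, control, Scf-GFP-positive and Scf-GFP-negative libraries from left to right); each summit is given once, to the listed gene whose body holds it (the shortest where several do) or is nearest, and empty cells are 0. Hoxc6 has 4 to 8 summits in rMSC, 4 to 7 in control cultures, 2 to 4 in Scf-GFP-positive stroma and none in Scf-GFP-negative cells, and Hoxb9 has 2 to 3 in control cultures and none elsewhere.

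When each summit was given to 1 gene only, the paralogue classes of a cluster could be compared without shared summits. In the Hoxc cluster, the central genes, numbered 4 to 8, had 12, 13 and 11 summits in rMSC, 8, 8 and 10 in control cultures, 5 and 7 in Scf-GFP-positive libraries and 1 and 0 in Scf-GFP-negative cells. The posterior genes, numbered 9 to 13, had 9, 8 and 10 in rMSC, 6, 8 and 6 in control cultures, 9 and 5 in Scf-GFP-positive libraries and 0 and 1 in Scf-GFP-negative cells. Both classes were lowest in Scf-GFP-negative cells, without overlap with any other group, and the central class was highest in rMSC. In the Hoxa cluster the posterior genes had 7, 6 and 9 summits in rMSC, 6, 5 and 7 in control cultures, 10 and 6 in Scf-GFP-positive libraries and 11 and 6 in Scf-GFP-negative cells, so that all groups overlapped. The anterior Hoxa genes, Hoxa2 and Hoxa3, had 4, 6 and 8 in rMSC, 5, 7 and 8 in control cultures, 10 and 7 in Scf-GFP-positive libraries and 4 and 2 in Scf-GFP-negative cells. The listed Hoxa3 body, chr6:52169059-52213067, spans those of Hoxa4, Hoxa5 and Hoxa6. Summits between these genes were therefore counted as anterior, so the split of anterior from central Hoxa summits depends on that gene model. Hoxa2, a gene of the pharyngeal arches, had at least 1 own summit in each rMSC, control and Scf-GFP-positive library and none in Scf-GFP-negative cells. The central Hoxa genes, numbered 4 to 7, had 1 summit in each rMSC and each control library, 3 in each Scf-GFP-positive library and 2 and 1 in Scf-GFP-negative libraries.

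The control cultures were next compared with the Scf-GFP-positive stroma, the kind of cell they had been seeded with. The Hoxd window, which passed the filter only through its Scf-GFP-positive summits, fell, with 1, 1 and 1 summits in control libraries, against 5 and 4 in Scf-GFP-positive libraries. The groups did not overlap, the log2 change was −1.73 ± 0.24 and the adjusted p 0.00634, while the ratio of means was 0.222 with a counting interval of 0.0387 to 0.891. With all deposited peaks the window held 1, 4 and 3 summits in control and 6 and 13 in Scf-GFP-positive libraries, and the adjusted p was 0.0684. Hoxd8, a trunk-patterning gene, had 0, 0 and 0 own summits in control cultures and 2 and 1 in Scf-GFP-positive stroma.

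Summits in the Hoxb window numbered 10, 5 and 11 in control libraries, against 2 and 3 in Scf-GFP-positive libraries. The groups did not overlap, but the log2 change of 1.56 ± 0.84 had an adjusted p of 0.292. The window had passed the filter only through the control libraries, which favoured a difference here. With a −log10 q of at least 5 required of every peak, the window held 8, 10 and 11 summits in control and 0 and 0 in Scf-GFP-positive libraries (adjusted p = 0.00548). The Hoxa window held 12, 13 and 16 summits in control and 23 and 16 in Scf-GFP-positive libraries, which overlapped (log2 change −0.49 ± 0.30, adjusted p = 0.351). The Hoxc window held 14, 16 and 16 in control and 14 and 12 in Scf-GFP-positive libraries, which also overlapped (0.23 ± 0.11, adjusted p = 0.222).

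No member locus was called between control and Scf-GFP-positive cells by limma, with 0 higher and 0 lower, against 5.46% of all tested loci in each direction and 10.9% in all, and 3 members had an unadjusted p under 0.05. Hoxc5 had 3, 4 and 3 summits in control and 2 and 1 in Scf-GFP-positive libraries (log2 change 0.97 ± 0.29, adjusted p = 0.0697). Hoxa6 had 3, 2 and 4 against 6 and 6 (−0.93 ± 0.26, adjusted p = 0.0585), and without control replicate 3 its adjusted p was 0.0440. That was the only 1 of 20 settings under which Hoxa6 passed. In both genes the groups stood apart. Hoxa5, a gene of the neck and thorax, had 3, 2 and 4 in control and 6 and 5 in Scf-GFP-positive libraries (−0.81 ± 0.35, adjusted p = 0.185), and Hoxa11, a gene of the forearm and lower leg, had 3, 1 and 3 against 6 and 3 (−0.85 ± 0.48, adjusted p = 0.306). Without a filter, 6 members were higher in every control library, against 9.55% of all loci: Hoxb6, Hoxb7, Hoxb8, Hoxb9, Hoxc5 and Hoxc13. Another 8 were lower, against 12.0% of all loci: Hoxa3, Hoxa5, Hoxa6, Hoxd3, Hoxd8, Hoxd9, Hoxd10 and Hoxd11.

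rMSC were compared with control cultures to see what the 5 transduced factors changed in the clusters. The Hoxb window held 1, 0 and 0 summits in rMSC libraries, against 10, 5 and 11 in control libraries. The groups did not overlap, and peaks covered 0.151%, 0% and 0% of the window in rMSC and 1.52%, 1.19% and 2.36% in control cultures. The log2 change was −3.60 ± 0.75 with an adjusted p of 0.0551, just above the threshold of 0.05, and the ratio of means was 0.0385 with a counting interval of 0.000938 to 0.234. The window had passed the filter only through the control libraries, with a mean of 1.29 elsewhere, so the filter itself favoured this difference. Over 20 settings the adjusted p ranged from 0.0161 to 0.151 and passed in 7. The direction was the same on both flow cells, with 1 against 10 on the first and 0 and 0 against 5 and 11 on the other. With all deposited peaks, the window held 2, 3 and 2 summits in rMSC and 16, 19 and 28 in control libraries, so the groups stood apart there too.

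When each summit was given to 1 gene, the central Hoxb genes had 1, 0 and 0 summits in rMSC and 6, 3 and 5 in control libraries, without overlap, and the posterior ones, all at Hoxb9, 0, 0 and 0 against 3, 2 and 3. The anterior genes had 0, 0 and 0 in rMSC and 1, 0 and 3 in control libraries, which overlapped. The listed Hoxb3 body spans that of Hoxb4, so summits on either side of Hoxb4 were counted as anterior. Hoxb3, a hindbrain and blood progenitor gene, had 0, 0 and 0 summits in rMSC and 4, 2 and 6 in control libraries (adjusted p = 0.0626). It had passed the filter only through the control libraries, and was called under 3 of the 14 settings in which it could be tested. Hoxb6 had 0, 0 and 0 in rMSC and 4, 2 and 4 in control libraries, and Hoxb9 had 1, 0 and 0 in rMSC and 4, 2 and 2 in control libraries. Both lay below the mean needed for a test. Hoxb4, whose forced expression expands mouse blood stem cells, had 0, 0 and 0 in rMSC and 2, 0 and 3 in control libraries, which overlapped.

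The Hoxc window held 21, 21 and 21 summits in rMSC libraries, against 14, 16 and 16 in control libraries. The groups did not overlap, with a log2 change of 0.44 ± 0.10 and an adjusted p of 0.0594. Peaks covered 11.6%, 10.9% and 9.5% of the window in rMSC and 4.55%, 7.0% and 7.23% in control cultures. All of chromosome 15 moved with it: it held 5.93%, 6.02% and 6.09% of all peaks in rMSC and 4.40%, 4.38% and 4.34% in control cultures, against 4.18% and 4.19% in Scf-GFP-positive libraries. With chromosome totals equalised, the log2 change of the window was −0.02 (adjusted p = 0.969), so the rMSC difference in Hoxc summits was no larger than that of its chromosome.

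Of the tested members, 1 rose and 0 fell in rMSC by limma, against 1.33% and 1.28% of all tested loci, 2.61% in all, and 3 had an unadjusted p under 0.05. Hoxc9, a gene of the thoracic skeleton, had 8, 6 and 6 summits within 10 kb in rMSC, against 4, 3 and 3 in control cultures. The groups did not overlap (log2 change 0.90 ± 0.17, adjusted p = 0.0437). The summits given to Hoxc9 itself numbered 3, 2 and 2 in rMSC and 3, 3 and 2 in control cultures, which overlapped, so the added summits lay in flanks shared with Hoxc8 and Hoxc10. The call passed under 8 of 21 settings and was lost without any 1 of the 6 libraries compared (adjusted p from 0.0663 to 0.115). Hoxc10 had 7, 6 and 8 summits in rMSC and 3, 5 and 4 in control cultures (0.75 ± 0.46, adjusted p = 0.450), and Hoxc11 had 3, 4 and 6 against 1, 2 and 3 (0.99 ± 0.55, adjusted p = 0.395). Without a filter, Hoxc9 and Hoxc10 were the 2 members higher in every rMSC library, against 6.05% of all loci. Another 7 were lower, against 4.85% of all loci: Hoxb3, Hoxb5, Hoxb6, Hoxb7, Hoxb8, Hoxb9 and Hoxc13.

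The Hoxa window held 12, 13 and 18 summits in rMSC and 12, 13 and 16 in control libraries, which overlapped almost entirely (log2 change 0.06 ± 0.27, adjusted p = 1.00). The Hoxd window held 1, 2 and 1 in rMSC and 1, 1 and 1 in control libraries (0.25 ± 0.21, adjusted p = 0.641).

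**Figure D3:**
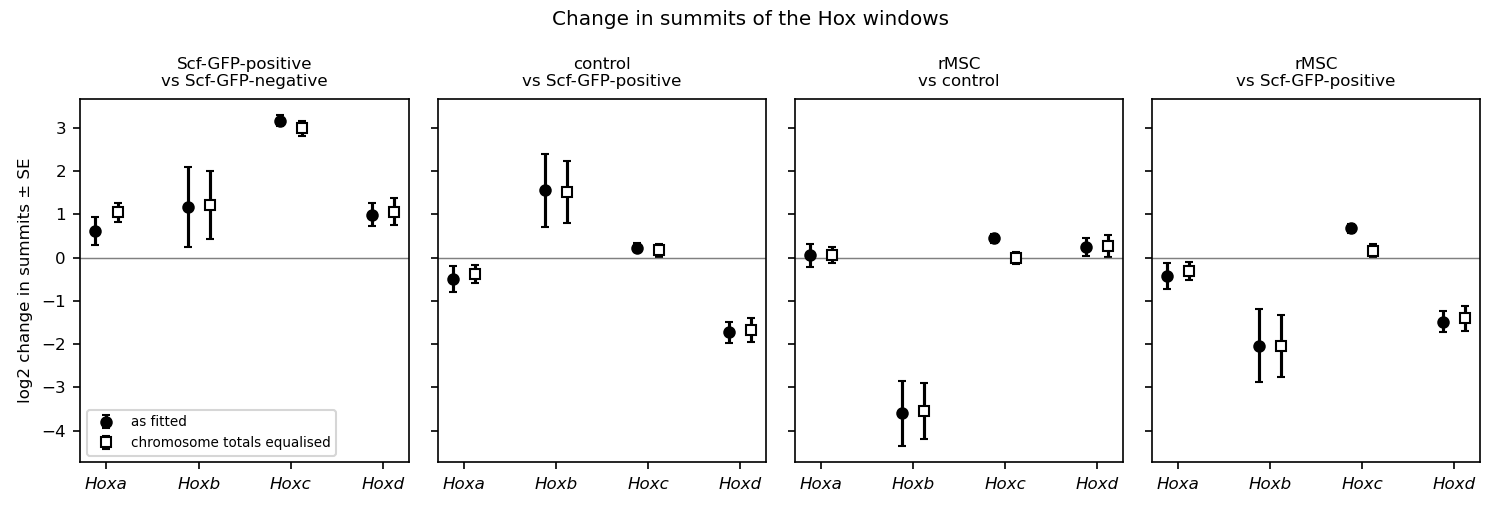
Log2 change in summits (y axis, on the log2(summits + 0.5) scale) of the 4 Hox windows in the 4 comparisons; filled circles are the values as fitted, open squares those with chromosome totals equalised between libraries, and bars are SE. The Hoxc change in rMSC against control is 0.44 as fitted and −0.02 with chromosome totals equalised, while the Hoxb change is −3.60 and −3.55.

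rMSC were last set against the Scf-GFP-positive stroma, which differs from them by culture and by transduction together. This comparison shares the Scf-GFP-positive libraries with that of the control cultures and the rMSC libraries with that above. The Hoxd window held 1, 2 and 1 summits in rMSC, against 5 and 4 in Scf-GFP-positive stroma, without overlap (log2 change −1.48 ± 0.24, adjusted p = 0.00929), again having passed the filter only through the Scf-GFP-positive libraries. With all deposited peaks the window held 4, 4 and 5 in rMSC and 6 and 13 in Scf-GFP-positive stroma, and the adjusted p was 0.226. The Hoxc window held 21 summits in each rMSC library and 14 and 12 in Scf-GFP-positive stroma (0.68 ± 0.11, adjusted p = 0.00921), and with chromosome totals equalised the change was 0.15 (adjusted p = 0.561). The Hoxb window held 1, 0 and 0 in rMSC and 2 and 3 in Scf-GFP-positive stroma (−2.04 ± 0.84, adjusted p = 0.157), and the Hoxa window 12, 13 and 18 against 23 and 16 (−0.43 ± 0.30, adjusted p = 0.389).

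In the same comparison 2 members rose and 0 fell by limma, against 7.18% and 6.55% of all tested loci, 13.7% in all, and 5 had an unadjusted p under 0.05. Hoxc5 had 5, 5 and 3 summits in rMSC and 2 and 1 in Scf-GFP-positive stroma (log2 change 1.29 ± 0.29, adjusted p = 0.0264). The ratio of means was 2.89, with a counting interval of 0.794 to 15.8. Hoxc5 had passed the filter only through the rMSC libraries, with a mean of 1.86 elsewhere, so the filter itself favoured this call. Its call was lost without Scf-GFP-positive replicate 2 (adjusted p = 0.125), rMSC replicate 1 (adjusted p = 0.0768) or rMSC replicate 2 (adjusted p = 0.0763). Hoxc9 had 8, 6 and 6 summits in rMSC and 3 and 4 in Scf-GFP-positive stroma (0.84 ± 0.19, adjusted p = 0.0276). That call was lost without Scf-GFP-positive replicate 1 (adjusted p = 0.141) or without rMSC replicate 1, 2 or 3 (adjusted p = 0.0682, 0.0535 and 0.0507), and with flanks of 2 kb the change was −0.32 (adjusted p = 0.607). Both groups stood apart in both genes, and neither call held with chromosome totals equalised, where the count of members that rose was 0. Hoxc6 had 10, 11 and 8 summits in rMSC and 4 and 6 in Scf-GFP-positive stroma (0.90 ± 0.25, adjusted p = 0.0550), and Hoxb3 had 0, 0 and 0 against 2 and 3 (adjusted p = 0.0649). Without a filter, 5 members were higher in every rMSC library, against 11.6% of all loci, and 10 were lower, against 12.2% of all loci.

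Peaks of the 10 libraries were merged into 119945 regions, of which 106 lay in the Hox windows, with 37 in Hoxa, 20 in Hoxb, 38 in Hoxc and 11 in Hoxd. The strongest summit lay inside a listed gene body in 22, 12, 20 and 6 of them. A region open in all 10 libraries was found 2 times in the Hox windows, 1.89% of their regions, against 7.73% of all regions. Another 43 Hox regions were open in 1 library only, 40.6% of them, near the 44.1% of all regions. Both shared regions overlapped Hoxa9, at chr6:52221297-52223114 and chr6:52225071-52227243. At the first, the authors' fold enrichment was 10.4 to 16.2 in rMSC, 9.25 to 14.8 in control cultures, 16.3 to 17.0 in Scf-GFP-positive stroma and 7.0 to 9.34 in Scf-GFP-negative cells.

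Between Scf-GFP-positive and Scf-GFP-negative cells, 16 Hox regions were open in both Scf-GFP-positive libraries and in neither Scf-GFP-negative one, against 9.64% of all regions, and 1 showed the opposite, against 4.48% of all regions. The 16 made up 15.1% of Hox regions. With at least 50% of a region required to be covered, the share was 7.55% of Hox regions and 8.24% of all regions. Of the 16, 8 lay in Hoxc, 7 in Hoxa and 1 in Hoxd. The region with the strongest peaks, chr15:102998798-103000578 inside Hoxc6, had a fold enrichment of 34.0, 22.4 and 24.5 in rMSC, 20.7, 16.2 and 11.6 in control cultures, 14.2 and 11.3 in Scf-GFP-positive stroma and no peak in Scf-GFP-negative cells. A neighbouring region of Hoxc6, chr15:103001505-103003354, and one over the noncoding RNA gene Hotairm1 next to Hoxa2, chr6:52157557-52159129, were likewise open in those 8 libraries and in no Scf-GFP-negative library, also among all deposited peaks. The opposite pattern was found 1806 bp from Hoxa9, at chr6:52228588-52229375, with no peak in the Scf-GFP-positive, rMSC and control libraries and a fold of 7.58 and 5.03 in the Scf-GFP-negative ones. Among all deposited peaks that region was also open in 1 rMSC and 1 control library.

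**Figure D4:**
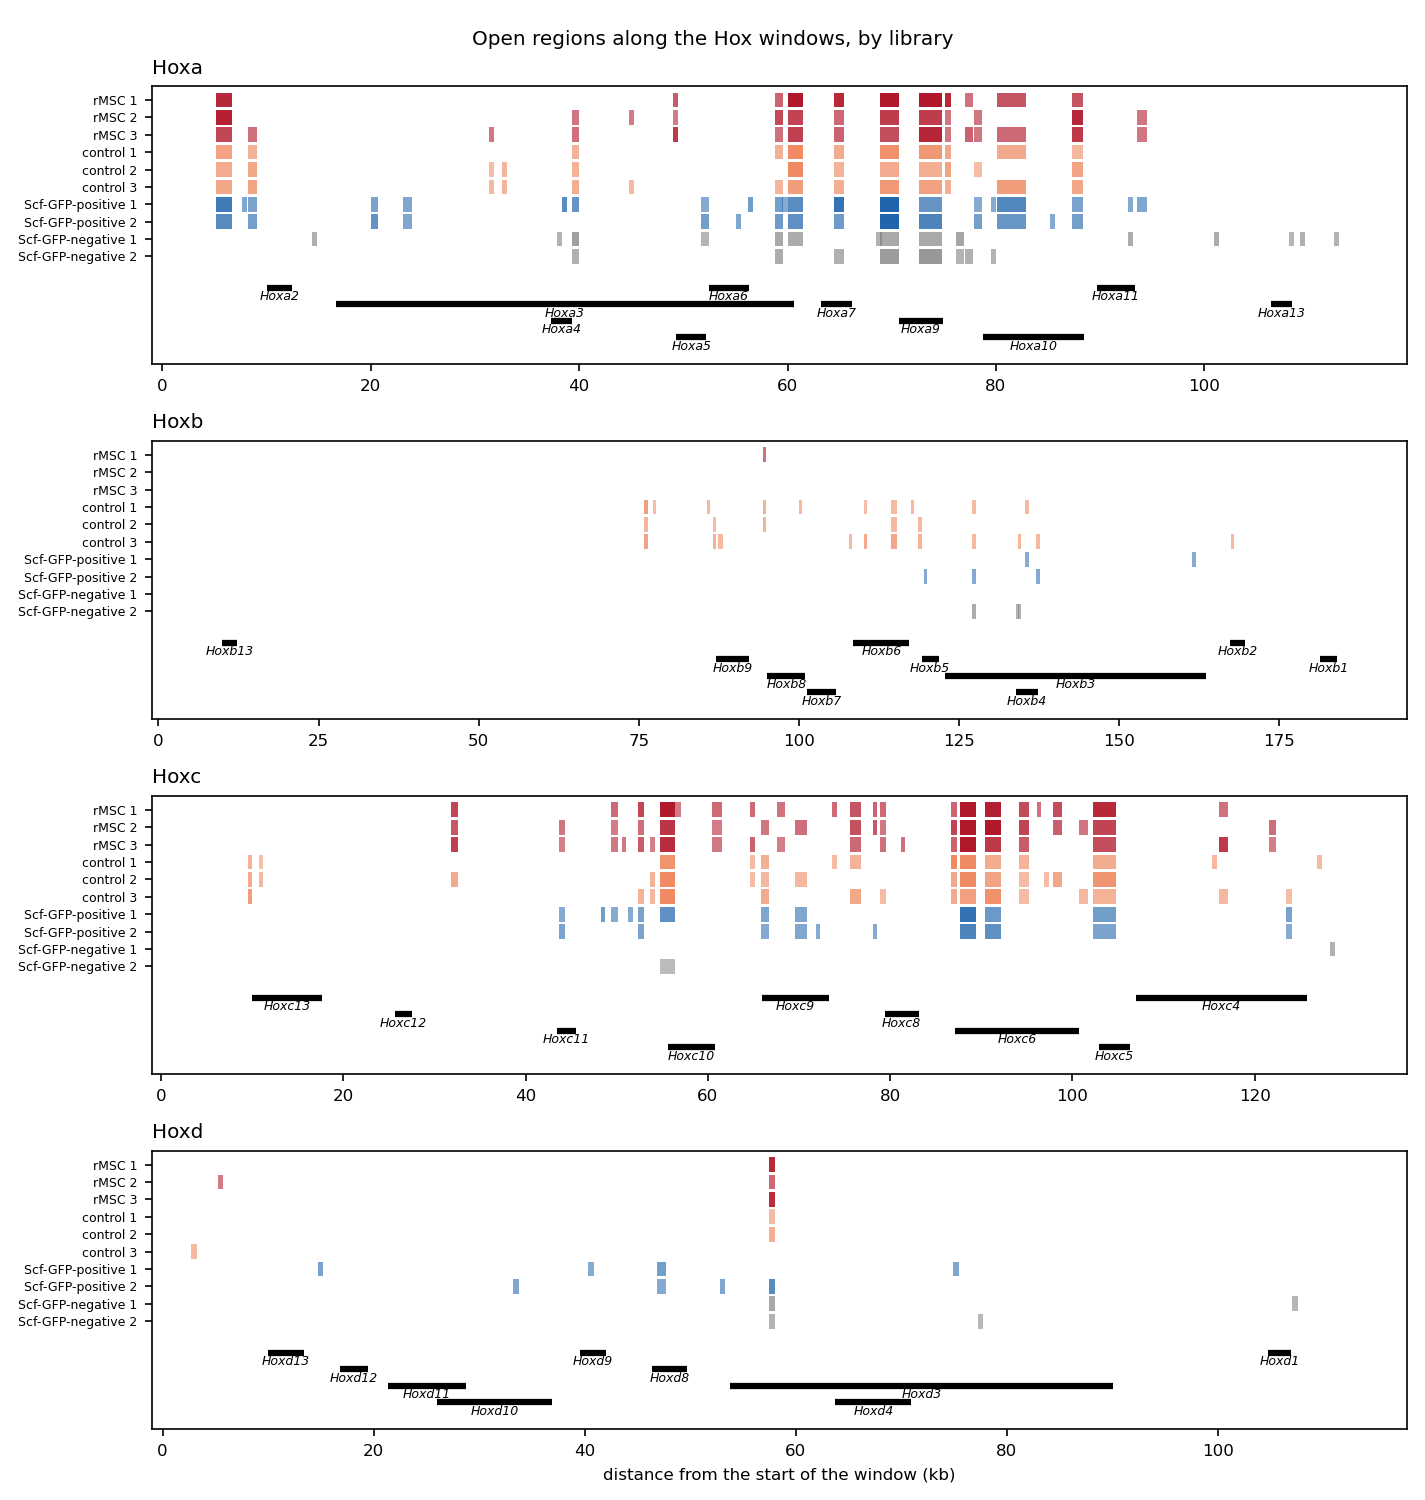
Regions open in each library along the 4 Hox windows (x axis, kb from the start of the window in chromosome order), with the libraries of rMSC, control, Scf-GFP-positive and Scf-GFP-negative cells from top to bottom and listed genes as black bars. Each block is a merged region drawn in every library with a peak in it, darker for a higher fold enrichment, and regions under 0.5 kb are widened to 0.5 kb. The Hoxc rows of the 2 Scf-GFP-negative libraries hold 1 block each, and 2 Hoxb regions are present in all 3 control libraries and no other.

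Between control cultures and Scf-GFP-positive stroma, 6 Hox regions were open in every control library only, against 7.19% of all regions, and 5 in every Scf-GFP-positive library only, against 6.21% of all regions. In rMSC against control, 3 were open in every rMSC library only, against 3.05% of all regions, and 3 in every control library only, against 3.45% of all regions. In rMSC against Scf-GFP-positive stroma the counts were 8, against 7.94%, and 5, against 7.08%. In these 3 comparisons the share of Hox regions was therefore near that of all regions in the equal-size lists. With all deposited peaks it was higher for regions open in every Scf-GFP-positive library and no control library (6.08% against 3.94%). The same held for regions open in every control library and no rMSC library (4.42% against 2.58%), all in Hoxb. The other shares in these comparisons then stayed near or below those of all regions. A pair of Hoxb regions was open in all 3 control libraries and in no other library, also among all deposited peaks. One, chr11:96260199-96260708, lay 10877 bp from Hoxb9 in the gene model Gm53, with a fold of 11.8, 6.94 and 10.8 in control cultures. The other, chr11:96298767-96299619 inside Hoxb6, had a fold of 5.91, 6.17 and 10.0. A region at Hoxc13, chr15:102920622-102921155, was open in the 3 control libraries only in the equal-size lists, but among all deposited peaks it was open in all 3 rMSC libraries too.

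Regions open in all 3 rMSC libraries and no control library of the equal-size lists were chr6:52201488-52201923, chr15:102971547-102972693 at Hoxc10 and chr15:102960448-102961249, which lay 4010 bp from Hoxc11. The first overlapped the end of Hoxa5 away from its gene start, with its strongest summit outside Hoxa5 and inside the longer Hoxa3 body. Among all deposited peaks, each of the 3 regions was also open in 1 control library, and the one near Hoxc11 in both Scf-GFP-positive libraries. In Hoxd, chr2:74705087-74705961 inside Hoxd8 was open in both Scf-GFP-positive libraries, with a fold of 7.10 and 5.03, and in no other equal-size list, while 1 rMSC library had a peak there among all deposited peaks. The Hoxd region open most widely, chr2:74715705-74716267 inside Hoxd3, was open in 3 rMSC, 2 control, 1 Scf-GFP-positive and 2 Scf-GFP-negative libraries.

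Promoters, taken as 250 bases before to 50 after a gene start, were listed in RefSeq (GRCm38.p6) for 24 starts of 22 members. The upstream Hoxa3 promoter was covered by a peak in all 3 rMSC, 3 control and 2 Scf-GFP-positive libraries and in 1 Scf-GFP-negative library. Its start, chr6:52213067, is the only Hoxa3 start listed and lies between the bodies of Hoxa6 and Hoxa7, among the central Hoxa genes. The Hoxa5 promoter was covered in both Scf-GFP-positive libraries and in no other, also among all deposited peaks. Of the 24 promoters, 14 had no peak in any equal-size list. The 2 sequences are shown because Hoxa3 has the most widely open promoter and Hoxa5 the only one that was open, in the equal-size lists, in every library of 1 group and in no other library. Among all deposited peaks the Hoxa6 promoter had that pattern too, also in Scf-GFP-positive stroma. They give the 250 bases before the start, on the minus strand, with each CG dinucleotide in capitals, at chr6:52213068-52213317 for Hoxa3 and chr6:52204588-52204837 for Hoxa5.
Hoxa3: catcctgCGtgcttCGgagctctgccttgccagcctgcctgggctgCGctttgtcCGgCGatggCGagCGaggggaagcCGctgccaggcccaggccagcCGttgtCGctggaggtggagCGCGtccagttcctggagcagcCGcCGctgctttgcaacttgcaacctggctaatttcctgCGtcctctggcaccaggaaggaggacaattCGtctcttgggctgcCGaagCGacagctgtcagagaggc
Hoxa5: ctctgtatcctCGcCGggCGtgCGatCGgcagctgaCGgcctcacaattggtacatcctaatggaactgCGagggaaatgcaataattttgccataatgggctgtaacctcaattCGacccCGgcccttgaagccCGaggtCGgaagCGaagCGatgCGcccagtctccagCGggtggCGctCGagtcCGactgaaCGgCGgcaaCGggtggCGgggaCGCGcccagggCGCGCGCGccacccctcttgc
They hold 18 and 28 CG dinucleotides and 64.8% and 63.6% G and C, against a median of 6 and 52.4% over 32851 promoters and of 12.5 and 58.6% over the 24 Hox promoters. Neither holds the homeodomain core TAATTA or the Hox and Pbx motif TGATTNA on either strand. Over the full windows TAATTA was found in 8.33% of Hox promoters and 5.29% of all promoters, and TGATTNA in 16.7% and 10.3%.

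The clusters also hold microRNA genes of the miR-196 and miR-10 families, which repress Hox messages among their targets. Their 5p sequences from RefSeq are shown to set the hairpins beside the nearby regions, with the seed, bases 2 to 8, in capitals. The miR-196 members share the seed AGGUAGU and the miR-10 members ACCCUGU.
mmu-miR-196b-5p: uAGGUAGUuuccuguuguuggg
mmu-miR-196a-5p: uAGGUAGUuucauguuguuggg
mmu-miR-10a-5p: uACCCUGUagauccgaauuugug
mmu-miR-10b-5p: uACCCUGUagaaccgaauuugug
Mir196b lies in Hoxa, Mir196a-1 and Mir10a in Hoxb, Mir196a-2 in Hoxc and Mir10b in Hoxd. A peak overlapped the Mir196b hairpin in 1 rMSC library, and none overlapped the other 4 hairpins in any library, also among all deposited peaks. Mir615, a further microRNA gene in Hoxc, was not among these hairpins, and peaks on its hairpin were not tested. It overlaps the Hoxc5 region chr15:103013352-103015905. That region was open in 3 rMSC, 3 control, 2 Scf-GFP-positive and 0 Scf-GFP-negative libraries.

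Regulators and partners of the Hox genes were described by lists, each by its count of tested loci that passed, to be read against the shares of all tested loci given above for the same comparison: 13.8% higher and 16.6% lower between the sorted groups, 5.46% each way when control cultures were set against Scf-GFP-positive stroma, and in rMSC 1.33% higher and 1.28% lower relative to control cultures, 7.18% higher and 6.55% lower relative to Scf-GFP-positive stroma. Of 8 tested Pbx, Meis and Pknox partners, 3 rose and 0 fell in Scf-GFP-positive against Scf-GFP-negative cells, with a median log2 change of 0.33. Pknox2 had 21 and 18 summits in Scf-GFP-positive and 0 and 0 in Scf-GFP-negative libraries (adjusted p = 1.34e-05), and Meis2 had 9 and 10 against 0 and 0 (adjusted p = 4.92e-05). Both sets of values lay far apart. In control cultures Pknox2 had 11, 10 and 7 summits, fewer than in Scf-GFP-positive stroma (−1.04 ± 0.20, adjusted p = 0.0192), and no other partner passed. In rMSC, Pknox2 had 6, 5 and 6 (−1.70 ± 0.20 against Scf-GFP-positive, adjusted p = 0.00280) and Meis2 had 4, 5 and 3 (−1.17 ± 0.23, adjusted p = 0.0185), and 0 partners passed against control cultures by limma, with 3 at an unadjusted p under 0.05.

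Of 17 tested Polycomb and trithorax regulators, 0 passed between the sorted groups by limma, with 2 at an unadjusted p under 0.05, and 0 between control and Scf-GFP-positive cells, with 0 unadjusted. Ezh1, a histone methyltransferase of Polycomb, had 2, 1 and 1 summits in rMSC, against 4, 4 and 3 in control cultures (−1.22 ± 0.21, adjusted p = 0.0360) and 3 and 3 in Scf-GFP-positive stroma (−0.98 ± 0.24, adjusted p = 0.0367). Of 10 tested retinoic acid genes, 4 rose and 1 fell in Scf-GFP-positive against Scf-GFP-negative cells. The receptor gene Rarb had 9 and 11 summits against 2 and 2 (2.06 ± 0.17, adjusted p = 0.000201). The one that fell, the retinaldehyde dehydrogenase Aldh1a1, had 0 and 0 against 4 and 6 (adjusted p = 0.00179). In control against Scf-GFP-positive cells 3 rose and 1 fell. Rarb had 15, 18 and 16 against 9 and 11 (0.68 ± 0.16, adjusted p = 0.0349), Aldh1a1 had 3, 4 and 6 against 0 and 0 (adjusted p = 0.00518), and Cyp26b1, which degrades retinoic acid, had 1, 1 and 1 against 3 and 5 (−1.55 ± 0.33, adjusted p = 0.0286). By limma, 0 retinoic acid genes passed in rMSC against control, with 4 at an unadjusted p under 0.05, and in rMSC against Scf-GFP-positive cells Aldh1a1 rose, with 6, 3 and 2 against 0 and 0 (adjusted p = 0.00583).

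Other regulators of position and limb form were tested for 9 of 31 genes. Between the sorted groups 6 rose and 0 fell, with Prrx1 at 7 and 5 summits in Scf-GFP-positive and 0 and 0 in Scf-GFP-negative libraries (adjusted p = 4.92e-05). In control against Scf-GFP-positive cells 1 fell, Tbx18, with 1, 1 and 1 against 5 and 6 (−2.00 ± 0.20, adjusted p = 0.00171). Against control cultures 2 rose in rMSC: Tbx18, with 3, 2 and 2 summits against 1, 1 and 1 (0.90 ± 0.18, adjusted p = 0.0478), and Lhx9, with 5, 5 and 4 against 2, 1 and 2 (1.29 ± 0.25, adjusted p = 0.0479). Against Scf-GFP-positive stroma 3 fell in rMSC: Tbx18, Prrx1 and the limb gene Shox2, which had 2, 3 and 2 against 7 and 11 (−1.73 ± 0.45, adjusted p = 0.0431). Of 4 tested genes just outside the Hox windows, 0 passed between the sorted groups by limma, with 0 at an unadjusted p under 0.05, and 0 in rMSC against control, with 1 unadjusted. Skap1, beside Hoxb, had 6, 5 and 4 summits in control cultures, against 1 and 0 in Scf-GFP-positive stroma (2.65 ± 0.41, adjusted p = 0.0103). In rMSC it had 4, 5 and 4 (2.47 ± 0.41 against Scf-GFP-positive, adjusted p = 0.0105), while the Hoxb window beside it held 1, 0 and 0. Smug1, beside Hoxc, had 7, 6 and 6 in rMSC and 3 and 3 in Scf-GFP-positive stroma (0.96 ± 0.24, adjusted p = 0.0366), and 3, 6 and 4 in control cultures, which overlapped those of rMSC. It lies on chromosome 15, whose share of all peaks was higher in rMSC, as given above, and the part of that share in its value was not tested.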

How the data were processed

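ATAC-seq peaks of 10 mouse bone marrow libraries were analysed: 3 rMSC, 3 control, 2 Scf-GFP-positive and 2 Scf-GFP-negative. Reads were aligned with BWA and peaks called with MACS2 on mm10, per the submitters' processing notes, with versions and parameters not given in the sources used here. Each deposited file lists the peaks of 1 library, with the authors' score, fold enrichment (a ratio over background), −log10 p-value, −log10 q-value and summit offset. Read depth is unknown. The deposited lists hold 39936 to 78489 peaks, so each list was cut, after peaks on chromosome Y were set aside, to its 39912 highest −log10 q-values, with tied peaks taken in a seeded random order. Libraries were amplified to different numbers of PCR cycles, per the labels' protocols, and which library had which number is not given there.

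Summits were counted within 10 kb of each of 21631 protein-coding genes (RefSeq, GRCm38.p6) and in the 4 Hox windows. Loci that averaged 2 or more summits over the 10 libraries were tested with limma 3.58.1 in R 4.3.3 on log2(summits + 0.5), with all 4 groups in 1 model without covariates and Benjamini-Hochberg adjustment at 0.05. A summit inside several listed bodies was given to the shortest when each was assigned to 1 gene. Merged regions were called where every library of one group and none of the other had a peak. The fit was tested on simulated data. Tables and plots used Python 3.11.15, pandas 2.3.3 and matplotlib 3.10.9.

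The members and gene lists were chosen with earlier results of these data known. In each comparison the named members were those past the threshold or, where fewer than 4 passed, also those with the largest log2 change among the tested members. Named regions were up to 4 per direction by mean −log10 p, and of each other list up to 3 genes per direction. The values of 1 gene of these lists are not reported here. Beyond that rule, the promoters and some members were described after their values were seen. Alternatives were all deposited peaks, a −log10 q of at least 5, flanks of 2 kb, no filter, a pseudocount of 1, equalised chromosome totals, a replicate block, only the groups compared, a stricter region overlap, and each library left out.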

Additional observations from a re-analysis of the deposited data

How the results depend on the processing

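Over the other settings, 314 of 415 values kept their side of the threshold without a change of sign (counts within 1.5 times), 30 lost a call, 22 gained one, 41 counts moved and 8 values changed sign. With 1 library left out, 393 of 464 held, 28 lost a call, 10 gained one, 30 counts moved and 3 values changed sign. The Hoxc window in Scf-GFP-positive against Scf-GFP-negative cells passed under every setting run. Below, P/N is Scf-GFP-positive against Scf-GFP-negative, C/P control against Scf-GFP-positive, R/C rMSC against control and R/P rMSC against Scf-GFP-positive. Window values are log2 changes with limma's adjusted p, and causes were not tested. Shares of all tested loci under these other settings are not given here, so the member counts below have no such share beside them.

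With a −log10 q of at least 5, P/N Hoxa was 0.88 (0.0322), C/P Hoxb 4.33 (0.00548, with both Scf-GFP-positive libraries at 0, so its size depends on the pseudocount), C/P Hoxc 0.98 (0.0305) and R/C Hoxb −3.81 (0.0161), and values that were not called turned sign in P/N Hoxb (−0.79), R/P Hoxa (0.0051), R/P Hoxb (0.53) and C/P Hoxa11 (0.061). Members called higher were then 2 in C/P, 5 in R/P and 0 in R/C, and regions lower were 0 in P/N, 2 in C/P and 2 in R/P. Those regions were 0%, 2.04% and 2.04% of Hox regions, against 3.35%, 5.11% and 6.23% of all regions. With 2 kb flanks, members higher were 3 in P/N, 0 in R/P and 0 in R/C, and 1 was lower in P/N, while Hoxc9 in R/P reversed to −0.32 (0.607). With all deposited peaks, Hoxd was −1.71 (0.0684) in C/P and −0.96 (0.226) in R/P. Members were then 1 higher and 1 lower in C/P and 0 higher in R/C, and regions 13 higher and 11 lower in C/P, 13 higher and 8 lower in R/P and 8 lower in R/C. Of the 181 Hox regions under that setting, the C/P shares were 7.18% higher and 6.08% lower, against 6.77% and 3.94% of all regions. In R/P they were 7.18% and 4.42%, against 8.65% and 4.57%, and in R/C the lower share was 4.42%, against 2.58%. A further setting required at least 50% of a region to be covered by a library's peaks. Regions were then 8 higher and 0 lower in P/N and 3 higher and 3 lower in C/P. In C/P each count was 2.83% of Hox regions, against 5.90% of all regions for higher and 6.03% for lower. The P/N lower share was 0%, against 4.69%. The P/N higher regions were then 7.55% of Hox regions and 8.24% of all regions, against 15.1% and 9.64% in the main result. Those shares were 11.2% and 10.1% with a −log10 q of at least 5, and 12.7% and 7.72% with all deposited peaks. With equalised chromosome totals, P/N Hoxa was 1.04 (0.00792), R/P Hoxc 0.15 (0.561), R/C Hoxb −3.55 (0.0293) and R/C Hoxc, with its sign turned, −0.017 (0.969), with 0 members higher and 1 lower in R/P and in R/C. With no filter, R/C Hoxc was 0.44 (0.0460), with 4 members higher and 3 lower in C/P, 3 lower in R/P and 2 lower in R/C. In fits of only the 2 groups compared, Hoxd was 0.99 (0.0602) in P/N and −1.48 (0.0686) in R/P, and in R/C Hoxb was −3.60 (0.0491) and Hoxc 0.44 (0.0303). Members higher were then 2 in P/N, 1 in C/P, 0 in R/P and 0 in R/C, with 1 lower in R/C. With a pseudocount of 1, R/C Hoxb was −2.88 (0.0397).

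How tied peaks at the end of the lists were treated was an alternative chosen after seeing the data. With all kept, R/C Hoxb was −3.95 (0.0409) and 1 member was higher in C/P. With all left out, C/P Hoxb was 3.93 (0.0304) and R/P Hoxc 1.15 (0.0992), while P/N Hoxb turned to −1.40 and R/P Hoxb to 0.53, with 1 member higher in C/P and 4 in R/P. The Hoxd window fell below the filter, and could not be tested, with ties left out, with a −log10 q of at least 5 and without either Scf-GFP-positive library.

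Same-numbered libraries had correlations of −0.0244 to 0.00670 in their deviations, so the numbers did not pair them. With a replicate block, P/N Hoxd was 0.99 (0.0547), with 1 member lower in C/P, 1 higher in R/P and 0 higher in R/C.

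With 1 library left out, P/N Hoxb was −0.24 to 2.56, R/C Hoxa −0.12 to 0.17, R/C Hoxb −4.13 to −3.33 and R/C Hoxc 0.38 to 0.48. Members were 4 to 8 higher in P/N, 0 to 1 lower in C/P, 0 to 3 higher and 0 to 2 lower in R/P, and 0 to 1 in either direction in R/C. Hoxd in P/N could be refitted only without libraries that leave its value of 0.99 as it is, since both Scf-GFP-negative libraries hold 2 summits. The lowest P/N count was without Scf-GFP-positive replicate 1. Regions were 17 to 29 higher and 2 to 10 lower in P/N, 6 to 11 higher and 5 to 19 lower in C/P, 9 to 12 higher and 5 to 18 lower in R/P, and 3 to 6 in either direction in R/C, where fewer libraries per group make the rule easier to meet. Few summits per locus, 2 or 3 libraries per group and unknown depth limit every comparison of single genes.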
